A study of Homo sapiens with 9 samples.

Results

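The clustered replication-dependent histone genes supply the core histones H2A, H2B, H3 and H4 and the linker histone H1 that package newly copied DNA. They were taken by symbol, as every gene named H1-1 to H1-6, H2AC, H2BC, H3C or H4C with a number, and 49 of the 17911 genes in the deposited count table met that rule. Of these, 3 encode H1, 12 encode H2A, 13 encode H2B, 9 encode H3 and 12 encode H4. The rule itself used no count, level or test. Every one of the 17911 genes in that table had a count in some library, so genes without counts may be missing from it. No gene in it carried the symbol H1-1, H1-5 or H1-6, and 237 genes carried no symbol. Other genes of the family may be missing too, so sums and shares here cover the 49 genes only. By their RefSeq coordinates on GRCh38, 19 of the genes lie on chromosome 6 between 26020451 and 26285534 and 17 between 27132316 and 27893891 of the same chromosome. A further 10 lie on chromosome 1 between 149782689 and 149887411. H2AC25 and H2BC26 form a pair farther along chromosome 1, and H4C16 stands alone on chromosome 12.

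These genes are transcribed in S phase, when the cell copies its DNA, and their short, mostly intronless mRNAs end in a stem-loop in place of a poly(A) tail. The stem-loop binding protein SLBP and the U7 small nuclear ribonucleoprotein make that end, and the mRNAs are destroyed when DNA synthesis stops. Some of the genes also give polyadenylated transcripts, mainly in differentiated or non-dividing cells. A library made by poly(A) selection can therefore miss most of their RNA, and the labels do not say whether these libraries were selected for poly(A) or depleted of ribosomal RNA.

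The study set a capsule culture of the breast cancer line MDA-MB-231 beside liquid overlay spheroids, and the labels list 9 samples as 3 capsule, 3 large spheroid and 3 small spheroid cultures. Every sample carries the cell type tag WT and 1 shared treatment text, which names liquid overlay, 5% Matrigel, the anti-ERBB2 antibody trastuzumab and 96 h before RNA extraction. Cells were grown in RPMI medium with 10% serum. RNA was extracted with TRIzol and sequenced after TruSeq library preparation. The 9 count columns fall into 3 sets of 3 by name. The capsule set matched the capsule samples. The second set is named L.O, read here as liquid overlay, and the third is named Sph.WT with no cell line in its name. Neither name gives a spheroid size, so both sets were taken as spheroid cultures, and large and small could not be told apart. The Sph.WT columns also carry a different file ending from the other 6. Nothing in the labels says that replicates came from separate cultures, so their spread may be technical.

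Library totals were 13212665 to 13735221 counts in the capsule set, 15525725 to 15988167 in L.O and 16605098 to 33263076 in Sph.WT. The capsule and L.O libraries went against their cell line label. A list of 12 genes typical of MDA-MB-231 summed to 584 to 601 CPM (counts per 1e6 counts of the library) in the capsule libraries, 815 to 935 CPM in L.O and 5746 to 6010 CPM in Sph.WT. The surface protein CD44 averaged 2.20 CPM in the capsule set, 5.72 CPM in L.O and 849 CPM in Sph.WT. Genes typical of the kidney line HEK293, of which 5 of 6 were measured, summed to 2421 to 2647 CPM in the capsule libraries, 2257 to 2591 CPM in L.O and 28.5 to 32.4 CPM in Sph.WT, where the neurofilament NEFL was at 0. All contrasts with Sph.WT therefore carry culture, cell identity and any difference in file processing together, and these cannot be told apart. The labels do not say what the different file ending stands for. Libraries are called by their column names for this reason.

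The stem-loop that defines these mRNAs was looked for in the GENCODE release 29 transcripts of the genes. It was found in 28 of the 49 genes, against 100 of 19702 protein-coding genes (0.508%) in the whole annotation. The remaining 21 genes have transcript models that show no stem-loop, and many of those models hold coding sequence only. There were 6 forms of the 16-base element. A single form was shared by 15 H2A, H2B and H3 genes, and 5 H4 genes shared another. The examples below give each form from a gene named later, in the sense strand on GRCh38, with the stem and loop in capitals and 5 bases on either side in lower case. The first belongs to H2AC25 (chr1:228457364-228457389, minus strand), the second to H2AC11 (chr6:27133510-27133535, plus), the third to H2BC5 (chr6:26158582-26158607, plus), the fourth to H3C6 (chr6:26225591-26225616, plus), the fifth to H4C11 (chr6:27824454-27824479, plus) and the last to H4C14 (chr1:149833027-149833052, plus).
H2AC25: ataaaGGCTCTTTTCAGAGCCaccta
H2AC11: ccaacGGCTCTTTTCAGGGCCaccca
H2BC5: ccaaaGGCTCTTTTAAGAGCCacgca
H3C6: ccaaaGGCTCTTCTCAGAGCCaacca
H4C11: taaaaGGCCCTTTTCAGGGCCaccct
H4C14: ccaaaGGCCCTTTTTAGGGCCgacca
The form of H2BC5 is shared by H2BC4 and H2BC7, and differs from that of H2AC25 inside the loop. The H4 forms differ from the others in the stem. In 22 of the 28 genes at least 1 annotated transcript runs on for more than 50 bases past the element, and in the other 6 the models stop close to it.

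Many of the genes are arranged head to head and share a promoter. Among the 45 genes with an entry in the RefSeq promoter table (GRCh38.p14, 250 bases before to 50 after the start), 8 such pairs were found. Exact matches were counted on either strand. A gene was counted once if any of its promoter entries held the motif. The letters CCAAT, a common proximal element of histone promoters, were found for 80% of these genes, against 39.7% of the 27305 genes in the table. They were found for every H1, H2A, H2B and H3 gene but for 1 of 10 H4 genes. A TATA box, searched as TATAAA, was found for 68.9%, against 14.0% of all genes. The octamer bound by POU2F1 (Oct-1), searched as ATTTGCAT, was found for 35.6%, against 2.19% of all genes. It was found for 9 of 13 H2B genes, where it is a known element of H2B transcription. Shared promoters hold the motifs of both partners, so these shares are not independent between H2A and H2B genes. The stretches between the starts of 2 pairs are printed because the pairs differed in the libraries. H2AC25 and H2BC26 (chr1:228457874-228458102, plus strand) were both almost missing from Sph.WT, and H2BC4 and H2AC6 (chr6:26123927-26124171, plus strand) were both present there. Capitals mark CCAAT and the octamer on either strand.
H2AC25-H2BC26: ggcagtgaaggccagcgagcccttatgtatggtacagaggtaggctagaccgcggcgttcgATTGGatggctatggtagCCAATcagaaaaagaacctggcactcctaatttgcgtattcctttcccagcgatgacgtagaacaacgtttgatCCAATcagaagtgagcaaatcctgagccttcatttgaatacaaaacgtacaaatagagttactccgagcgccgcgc
H2BC4-H2AC6: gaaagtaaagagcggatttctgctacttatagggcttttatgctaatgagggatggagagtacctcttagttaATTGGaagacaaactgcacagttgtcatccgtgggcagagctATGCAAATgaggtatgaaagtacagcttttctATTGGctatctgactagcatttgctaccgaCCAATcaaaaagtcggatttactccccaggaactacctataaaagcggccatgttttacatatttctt
Both stretches hold 3 CCAAT boxes. The octamer occurs 1 time in the second and has no exact match in the first. It also occurs 1 time between H3C4 and H2BC7, each at 0.0100 CPM in Sph.WT. No exact match lies between H2AC15 and H2BC15, at 0.157 and 0.693 CPM there. The printed pairs were picked for their levels, and whether the octamer goes with level was not tested. A match describes letters in this window and says nothing of a factor's binding.

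Summed over the 49 genes, the histone mRNAs took a small part of each library. The sum was 379, 385 and 364 CPM in the capsule libraries, 633, 642 and 826 CPM in the L.O libraries and 153, 181 and 152 CPM in the Sph.WT libraries. The 3 sets did not overlap, with L.O highest and Sph.WT lowest. The means were 376 ± 10.9 CPM in capsule, 700.5 ± 109 CPM in L.O and 162 ± 16.3 CPM in Sph.WT (SD, n = 3 each). In bulk RNA, fewer cells in S phase and less histone RNA per cell cannot be told apart. The median gene of the family stood at 2.17 CPM in capsule, 2.87 CPM in L.O and 0.268 CPM in Sph.WT. The median of all 17911 genes was 16.7, 19.3 and 15.9 CPM in the same sets. CPM is not corrected for gene length, and 41 of the 49 genes have RefSeq spans of only 387 to 787 bases. This gap was therefore not separated from gene length.

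**Figure D1:**
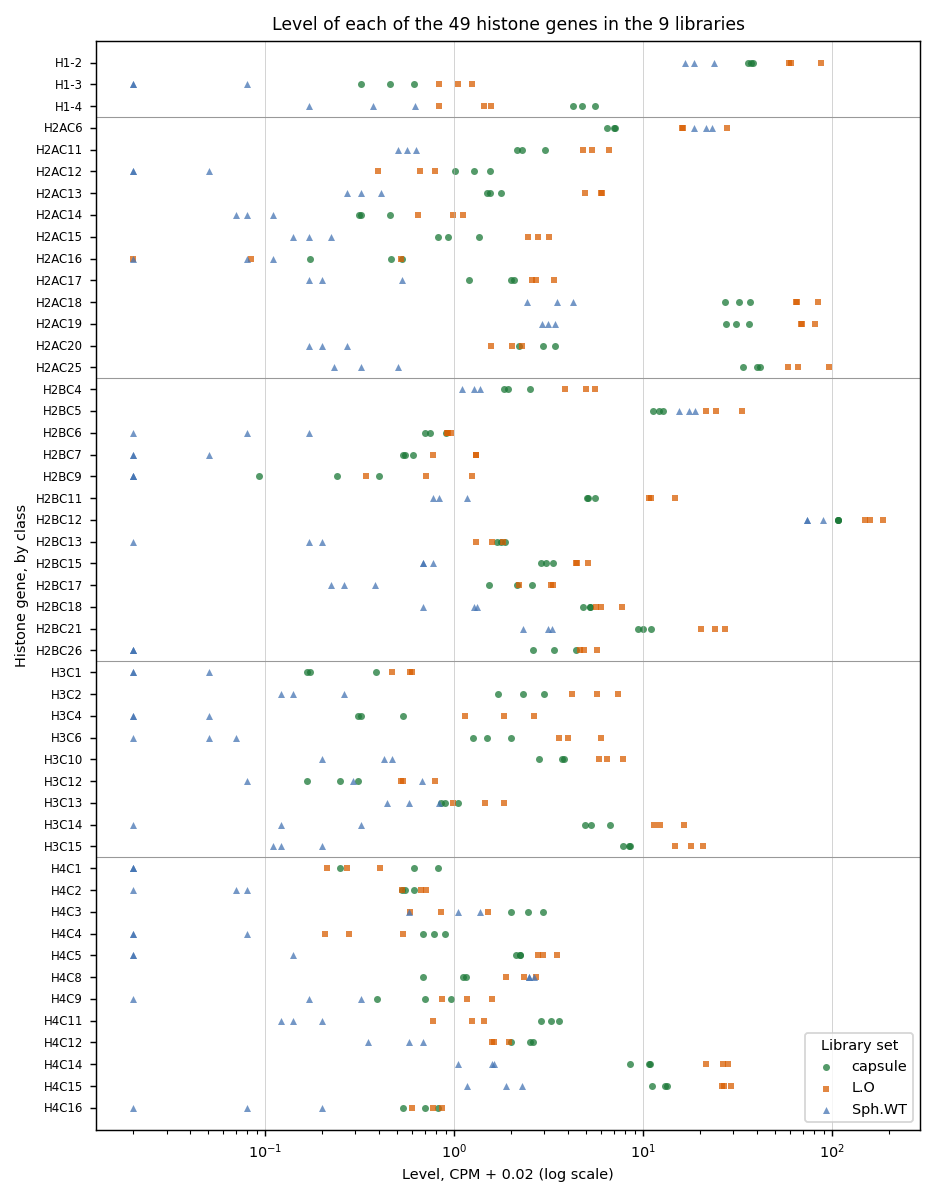
Level of each of the 49 histone genes, as CPM plus 0.02 on a log scale, in the 9 libraries. Each point is 1 library (green circles capsule, orange squares L.O, blue triangles Sph.WT), and grey lines separate H1, H2A, H2B, H3 and H4. Points at the left edge are counts of 0. For 44 of the 49 genes all L.O points lie to the right of all Sph.WT points.

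The order L.O above capsule above Sph.WT held for the means of 35 genes, and 9 more ran capsule, L.O, Sph.WT. Every L.O library exceeded every Sph.WT library for 44 of the 49 genes, a pattern that 55.0% of all genes also showed. Every capsule library exceeded every Sph.WT library for 45 genes, against 51.0% of all genes. Every L.O library exceeded every capsule library for 33 genes, against 38.5% of all genes. Within L.O, replicate 3 was the highest library for 37 of the 49 genes and its sum was 1.30 times the mean of the other L.O libraries. The same count was not made over all genes, so this may not be particular to the histone genes. In the Sph.WT set 3 genes (H2BC26, H2BC9 and H4C1) had no count in any library and 8 more had 1 to 3 counts in all, while 18 reached 30 counts.

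The summed levels of the classes differed by very different amounts. H3 genes summed to 24.0, 21.7 and 22.8 CPM in capsule, 45.7, 48.5 and 62.9 CPM in L.O and 1.96, 2.25 and 0.964 CPM in Sph.WT, so the L.O mean was 30.3 times and the capsule mean 13.2 times the Sph.WT mean. H2A genes summed to 107 to 132 CPM in capsule, 228 to 312 CPM in L.O and 27.5 to 30.6 CPM in Sph.WT. H4 genes summed to 35.7 to 38.6 CPM in capsule, 58.7 to 71.2 CPM in L.O and 6.74 to 8.42 CPM in Sph.WT. The ratios of the L.O to the Sph.WT means were 8.76 for H2A and 8.52 for H4. The sums of H1 and H2B differed least, and each was carried by 1 abundant gene. H1 genes summed to 41.9 to 42.4 CPM in capsule, 60.4 to 90.1 CPM in L.O and 17.0 to 23.8 CPM in Sph.WT, a ratio of 3.57 between L.O and Sph.WT, and H2B genes to 153 to 155 CPM, 235 to 290.2 CPM and 96.3 to 116 CPM, a ratio of 2.46. In Sph.WT, H1-2 gave 19.6 CPM of the H1 mean of 20.0 CPM, and H2BC12 gave 78.7 CPM of the H2B mean of 103 CPM. Gene by gene, the median fold of L.O over Sph.WT was 2.78 for the 3 H1 genes tested, 12.2 for 10 H2A genes and 6.48 for 12 H2B genes. It was 54.5 for 7 H3 genes and 6.39 for 10 H4 genes. The H3 genes tested include H3C4 and H3C6, with 1 and 2 counts over the Sph.WT libraries. Genes low in every set were not tested, so these medians describe the genes tested and not the classes. Between capsule and L.O the class ratios were closer together, from 0.436 for H3 to 0.604 for H2B.

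**Figure D2:**
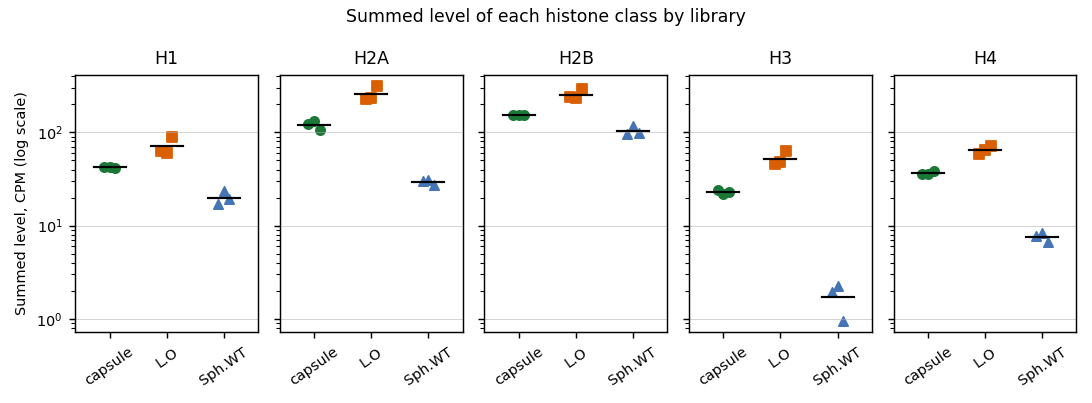
Summed CPM (log scale) of the H1, H2A, H2B, H3 and H4 genes. Each point is 1 library, ordered capsule, L.O, Sph.WT within each panel, and black lines are the means of 3. The gap between L.O and Sph.WT is widest for H3 (30.3-fold) and narrowest for H2B (2.46-fold).

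A few genes carried most of the counts. H2BC12, an H2B gene, had the highest level in every set, with 107, 107 and 108 CPM in capsule, 158, 149 and 185 CPM in L.O and 73.2, 89.1 and 73.8 CPM in Sph.WT. It took 28.5% of the family's counts in capsule, 23.4% in L.O and 48.6% in Sph.WT. Per kilobase of joined exons, H2BC12 was also the most abundant of the 49 in each set, at 281 CPM per kb in capsule, 430.2 in L.O and 207 in Sph.WT. The length used for H2BC12 was a model of 381 bases, whereas its RefSeq locus spans 8566 bases, so its place per kilobase rests on that model. In Sph.WT it was followed by H2AC6, the linker histone gene H1-2 and H2BC5, and these 4 genes, picked for their Sph.WT level, made up 82.8% to 85.4% of the family's counts there. The same 4 made up 42.5% to 44.5% in capsule and 38.6% to 40.4% in L.O, where H2AC25, H2AC18 and H2AC19 were also abundant. Summed, the 4 were at 163 ± 1.07 CPM in capsule, 279 ± 47.7 CPM in L.O and 137 ± 15.5 CPM in Sph.WT (SD, n = 3 each). The other 45 genes were at 213 ± 10.0 CPM in capsule, 421 ± 62.2 CPM in L.O and 25.4 ± 1.57 CPM in Sph.WT, a ratio of means of 16.6 for L.O over Sph.WT and 8.37 for capsule over Sph.WT.

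**Figure D3:**
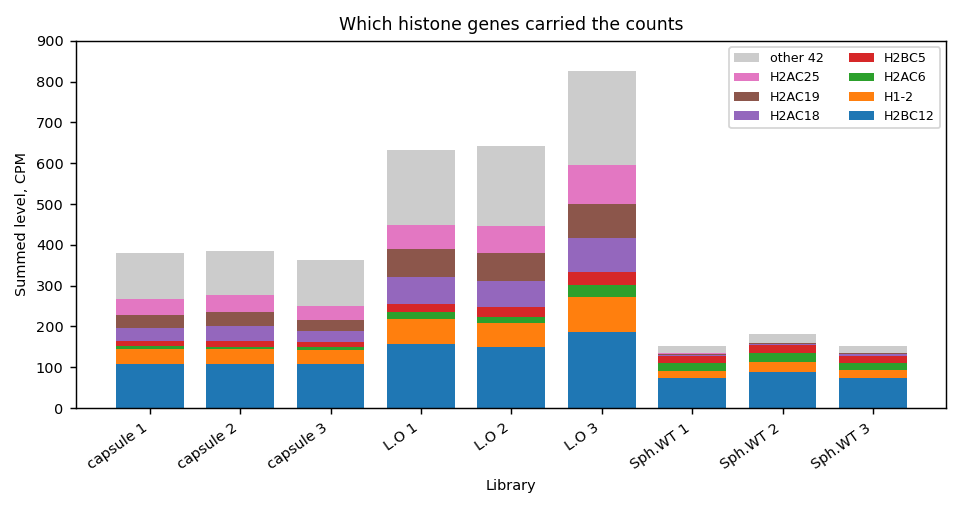
Summed CPM of the histone genes in each of the 9 libraries, split into 7 abundant genes and the other 42. H2BC12 is the bottom block of every bar. The grey, pink, brown and purple blocks make up more than the H2BC12 block in the L.O and capsule bars and less than it in the Sph.WT bars.

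Of the 49 genes, 42 passed the filter on low counts and were tested with edgeR's quasi-likelihood test, among 16985 genes with Benjamini-Hochberg adjustment over all of them. The 7 not tested (H2AC14, H2AC16, H2BC9, H3C1, H3C12, H4C1 and H4C2) had means up to 0.543 CPM in capsule, 0.893 CPM in L.O and 0.328 CPM in Sph.WT. A gene that passed the filter through a set where it was high had to differ from a set where it was near 0, so counts over the 42 describe the tested genes and not the family. The 3 sets were compared pairwise in 1 fit, and any pair of comparisons shares a set of libraries.

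Between L.O and Sph.WT, 37 of the 42 tested genes were higher in L.O and 2 were lower at an adjusted p under 0.05, where 42.4% of all genes tested were higher and 43.1% lower. With a change of at least 2-fold as well, 36 were higher, against 27.2% of all genes. No tested histone gene was 2-fold lower at any p, the largest fall being -0.61 on the log2 scale, against 25% of all genes called lower by that rule. The median log2 difference was 3.16 over the tested histone genes and -0.01 over all genes. With library totals 9349 of all genes were higher and 5287 lower, and 39 histone genes were higher. Between capsule and Sph.WT, 36 were higher and 3 lower, where 43% of all genes were higher and 42% lower. The median log2 difference was 2.65 over the histone genes and 0.03 over all genes. With library totals 8742 of all genes were higher and 5746 lower, and 38 and 3 of the histone genes. Placing H2BC26, at 0 in Sph.WT, at its lower bound left both medians as they were.

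Of the tested genes with counts in Sph.WT, H2AC25 differed most from that set in both comparisons. H2AC25 was measured at 40.0, 41.6 and 33.8 CPM in capsule, 58.2, 66.0 and 95.8 CPM in L.O and 0.302, 0.210 and 0.482 CPM in Sph.WT. Its log2 difference was 7.42 ± 0.25 for L.O minus Sph.WT (SE; adjusted p = 3.46e-18) and 6.65 ± 0.26 for capsule minus Sph.WT (adjusted p = 7.07e-17). Its partner across the shared promoter, the H2B gene H2BC26, was at 4.39, 3.35 and 2.57 CPM in capsule, 4.86, 4.63 and 5.67 CPM in L.O and 0 in all Sph.WT libraries. Taking 3 counts per Sph.WT library as the limit that a count of 0 allows, H2BC26 was at least 24.4-fold higher in capsule and at least 35.9-fold higher in L.O than in Sph.WT. Both genes of this pair were therefore abundant or readily detected in 6 libraries and at or near 0 in the other 3.

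H3C15 and H3C14 are copies on chromosome 1 that share an identical annotated transcript, so reads may have been split between them in any proportion. H3C15 was at 8.48, 8.37 and 7.80 CPM in capsule, 14.7, 17.9 and 20.7 CPM in L.O and 0.101, 0.0902 and 0.181 CPM in Sph.WT. The log2 difference of H3C15 was 6.73 ± 0.26 for L.O minus Sph.WT and 5.77 ± 0.29 for capsule minus Sph.WT, and those of H3C14 were 5.77 ± 0.32 and 4.67 ± 0.37 in the same comparisons. H3C6 had 2 counts over the Sph.WT libraries, against 63 in capsule and 212 in L.O. The ratio of counts per total was 54.2 for capsule over Sph.WT (95% counting interval 14.4 to 457) and 157 for L.O over Sph.WT (42.9 to 1303). H3C4, with 1 count in Sph.WT, 15 in capsule and 87 in L.O, gave 25.8 (3.97 to 1086) and 129 (22.5 to 5141) in the same order. These intervals cover counting error only. H3C10 was at 2.80 to 3.78 CPM in capsule, 5.82 to 7.79 CPM in L.O and 0.181 to 0.451 CPM in Sph.WT, a log2 difference of 3.69 ± 0.27 for L.O minus Sph.WT. H3C12, too low to be tested, averaged 0.222 CPM in capsule, 0.594 CPM in L.O and 0.328 CPM in Sph.WT. H3C13 was at 0.833 to 1.03 CPM in capsule, 0.960 to 1.80 CPM in L.O and 0.422 to 0.812 CPM in Sph.WT, and no comparison called it.

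Among the H2A genes, H2AC18 and H2AC19 are another near-identical pair, with the same coding sequence. H2AC18 was at 32.2, 36.7 and 27.1 CPM in capsule, 65.3, 64.0 and 83.7 CPM in L.O and 3.47, 2.41 and 4.22 CPM in Sph.WT. H2AC19 differed by 4.08 ± 0.13 on the log2 scale between L.O and Sph.WT (adjusted p = 1.48e-18) and by 3.02 ± 0.13 between capsule and Sph.WT. H2AC12 had 1 count over the Sph.WT libraries, 51 in capsule and 28 in L.O, a ratio of 87.7 for capsule over Sph.WT (95% counting interval 15.1 to 3532). Of the 10 H2A genes tested, 9 were higher in L.O than in Sph.WT, against 42.4% of all genes tested. In capsule 9 were higher than in Sph.WT, against 43% of all genes. In both cases H2AC6 was the one that was lower.

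Of the 10 H4 genes tested, 8 were higher in L.O than in Sph.WT, against 42.4% of all genes tested. In capsule 9 were higher than in Sph.WT, against 43% of all genes. H4C14 and H4C15, which also share an identical annotated transcript, were the most abundant. H4C14 was at 8.48, 10.7 and 10.9 CPM in capsule, 21.4, 26.4 and 28.1 CPM in L.O and 1.56, 1.59 and 1.02 CPM in Sph.WT, with log2 differences of 3.66 ± 0.17 for L.O minus Sph.WT and 2.48 ± 0.19 for capsule minus Sph.WT. H4C15 gave 3.46 ± 0.16 and 2.47 ± 0.17. H4C4 had 1 count over the Sph.WT libraries. H4C11 was at 3.56, 2.84 and 3.24 CPM in capsule, 1.22, 0.751 and 1.42 CPM in L.O and 0.101, 0.120 and 0.181 CPM in Sph.WT, so all 3 sets were separate with capsule highest. H4C11 has the same coding sequence as H4C12, so reads may also have been split between these genes.

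H2B genes held both large differences and some of the smallest ones. Of the 12 tested, 11 were higher in L.O than in Sph.WT, against 42.4% of all genes tested. In capsule 9 were higher than in Sph.WT, against 43% of all genes. H2BC21 was at 11.0, 9.32 and 9.93 CPM in capsule, 20.2, 23.8 and 27.0 CPM in L.O and 3.27, 3.13 and 2.29 CPM in Sph.WT, a log2 difference of 2.54 ± 0.15 for L.O minus Sph.WT. H2BC12 differed by 0.59 ± 0.09 between L.O and Sph.WT (adjusted p = 2.88e-06) and by 0.13 ± 0.09 between capsule and Sph.WT (adjusted p = 0.204). With library totals in place of trimmed-mean scaling the second of these became 0.44 and was called. The linker histone H1-2 was at 37.8, 37.2 and 35.8 CPM in capsule, 60.7, 58.7 and 87.5 CPM in L.O and 16.6, 23.6 and 18.5 CPM in Sph.WT, with log2 differences of 1.33 ± 0.13 and 0.58 ± 0.14 for L.O and for capsule minus Sph.WT. H1-4 was higher in capsule than in Sph.WT by 3.56 ± 0.34 and higher in L.O than in Sph.WT by 1.47 ± 0.41. H1-3 had 1 count over the Sph.WT libraries, 18 in capsule and 48 in L.O.

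Only 3 of the 42 tested genes were lower in capsule than in Sph.WT, against 42% of all genes tested, and they came from 3 classes. H2AC6 was at 6.96, 6.41 and 7.06 CPM in capsule, 16.1, 15.9 and 27.8 CPM in L.O and 21.6, 23.0 and 18.5 CPM in Sph.WT. The capsule libraries lay below all others, and L.O and Sph.WT overlapped. Its log2 difference was -1.95 ± 0.18 for capsule minus Sph.WT (adjusted p = 5.68e-10) and -0.55 ± 0.15 for L.O minus Sph.WT (adjusted p = 0.00227). The second call was lost with library totals, where the difference was -0.08. H2BC5 was at 12.03, 12.7 and 11.2 CPM in capsule, 21.4, 24.2 and 33.4 CPM in L.O and 15.4, 18.7 and 17.5 CPM in Sph.WT, with log2 differences of -0.84 ± 0.14 for capsule minus Sph.WT and 0.14 ± 0.13 for L.O minus Sph.WT (adjusted p = 0.314). With library totals the second of these became 0.61 and was called. H4C8 was at 1.14, 1.09 and 0.662 CPM in capsule, 1.86, 2.69 and 2.32 CPM in L.O and 2.47, 2.62 and 2.47 CPM in Sph.WT. The log2 difference of H4C8 was -1.70 ± 0.27 for capsule minus Sph.WT and -0.61 ± 0.22 for L.O minus Sph.WT (adjusted p = 0.0157), and this second call was lost with library totals, with DESeq2 and without L.O replicate 1 or Sph.WT replicate 2.

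**Figure D4:**
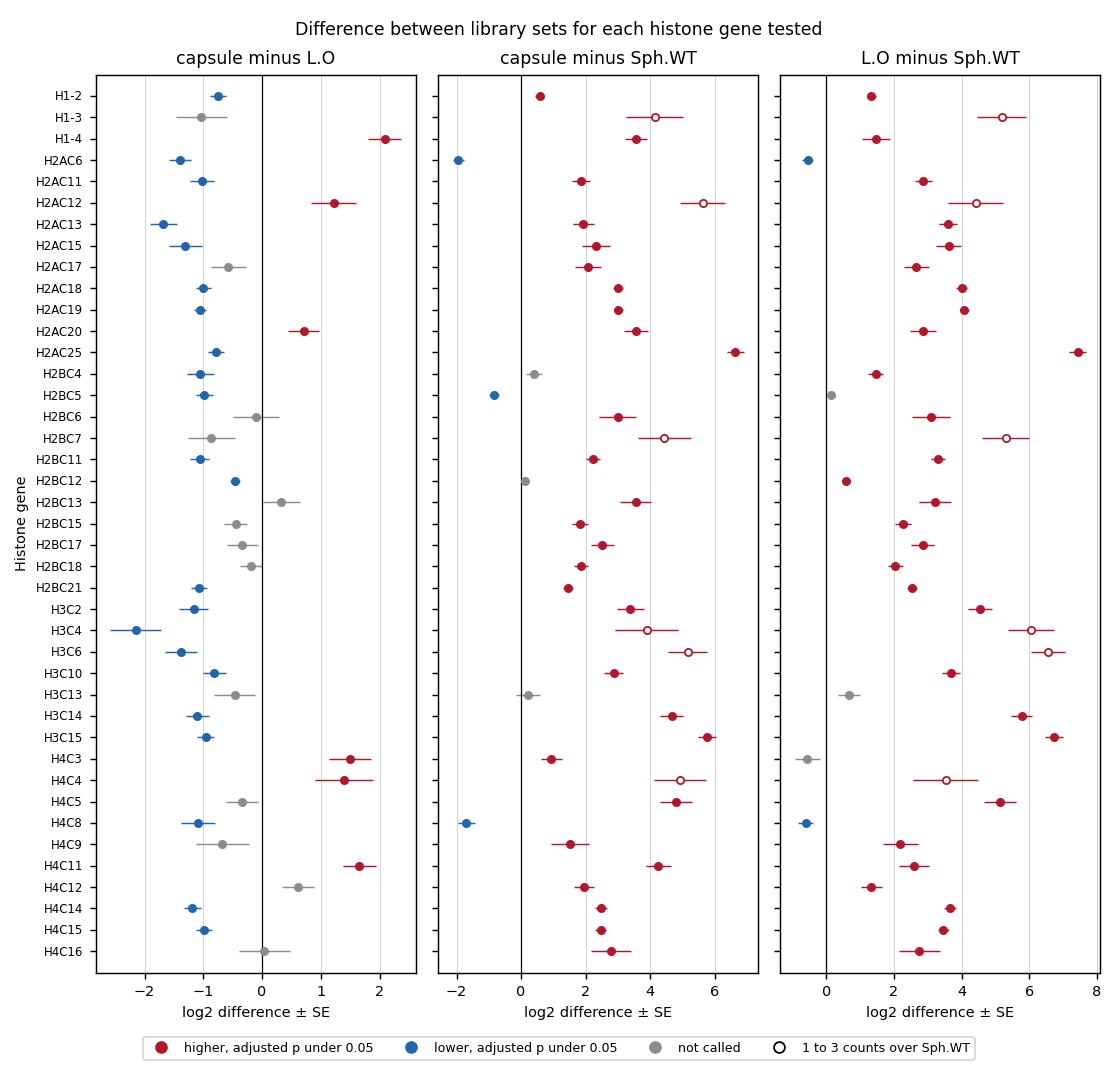
Fitted log2 difference with its SE for 41 of the 42 histone genes tested, in 3 panels: capsule minus L.O, capsule minus Sph.WT and L.O minus Sph.WT. Red and blue mark genes called higher and lower at an adjusted p under 0.05, grey marks the rest, and open points have 1 to 3 counts over Sph.WT. H2BC26 is left out because it is at 0 in Sph.WT. In the middle panel the only blue points are H2AC6, H2BC5 and H4C8, whereas the left panel is mostly blue.

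What these exceptions share was looked for in the annotation. A spliced transcript is annotated in GENCODE release 29 for 13 of the 49 genes, H2AC6, H2BC5 and H4C8 among them. Over the 12 of these that were tested, those exceptions included, the median log2 difference for L.O minus Sph.WT was 2.51, with a range of -0.61 to 6.55. Over the 30 tested genes with single-exon models only it was 3.57, from -0.56 for H4C3 up to H2BC26 with no count in Sph.WT. H2BC12 has only a single-exon model in GENCODE, but its RefSeq locus spans over 1000 bases, as do those of H2BC4, H2BC5, H2BC18, H2BC21, H3C4, H3C6 and H4C15. The median for L.O minus Sph.WT was 2.29 over these 8 genes and 3.26 over the 34 tested genes with shorter loci. The H2BC12 locus contains H4C9, and that of H4C15 contains H2AC19 and H3C15. Strand handling in the counting was not given in the sources used here, so reads in these overlaps may have been assigned to either gene. Both splits were made after the exceptions had been seen, and the exceptions are kept in the medians. The medians therefore cannot show that splicing or locus length goes with smaller differences. Which transcript gave the reads was not tested.

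Capsule and L.O, the 2 sets with high levels of the HEK293-typical genes, differed from each other as well. Of the 12 genes typical of MDA-MB-231, 9 were lower in capsule than in L.O and 3 were not called, with a median log2 difference of -1.38, and their part in the histone differences was not tested. Of the 42 tested genes, 22 were lower in capsule and 6 were higher, where 23% of all genes were lower and 22.5% higher. The median log2 difference was -0.79 over the histone genes and -0.02 over all genes. With library totals the median of all genes became -0.17, with 2216 higher and 5760 lower, and 27 histone genes were lower and 5 higher. The 5 largest falls were those of H3C4, H2AC13, H2AC6, H3C6 and H2AC15. H3C4 was at 0.303, 0.291 and 0.515 CPM in capsule and 2.62, 1.13 and 1.80 CPM in L.O, a log2 difference of -2.15 ± 0.43 (adjusted p = 0.000352). H2AC13 was at 1.74, 1.53 and 1.47 CPM in capsule and 6.02, 4.88 and 5.99 CPM in L.O, a difference of -1.68 ± 0.22. The log2 differences of the next 3 were -1.40 for H2AC6, -1.38 for H3C6 and -1.30 for H2AC15. The abundant genes fell as well, with log2 differences of -1.18 for H4C14, -1.08 for H2BC21, -1.06 for H2AC19, -0.997 for H2AC18, -0.78 for H2AC25, -0.75 for H1-2 and -0.46 for H2BC12. Of the 7 H3 genes tested, 6 were lower in capsule and H3C13 was not called.

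The 6 genes higher in capsule than in L.O were H1-4, H4C11, H4C3, H4C4, H2AC12 and H2AC20. H1-4 was at 4.24, 4.73 and 5.52 CPM in capsule and 1.54, 0.813 and 1.42 CPM in L.O, a log2 difference of 2.09 ± 0.28 (adjusted p = 3.97e-06), while its class neighbour H1-2 fell. H4C11 differed by 1.65 ± 0.28, and the capsule libraries lay above all L.O libraries. H4C3 was at 2.42, 1.97 and 2.94 CPM in capsule, 0.832, 0.563 and 1.48 CPM in L.O and 0.554, 1.35 and 1.02 CPM in Sph.WT. The log2 difference of H4C3 was 1.49 ± 0.35 for capsule minus L.O and 0.94 ± 0.33 for capsule minus Sph.WT. H4C4 and H2AC12 differed by 1.39 ± 0.50 and 1.22 ± 0.38, and both calls were lost with DESeq2 (adjusted p = 0.120 and 0.0753), where the differences were 1.37 and 1.19. The call of H4C4 was also lost without capsule replicate 1 or 2 or L.O replicate 1 or 2, and that of H2AC12 without capsule replicate 2 or L.O replicate 2. H2AC20, at 2.18 to 3.41 CPM in capsule and 1.54 to 2.25 CPM in L.O, overlapped between the sets. Its partner across a shared promoter, H2BC21, went the other way, with 9.32 to 11.0 CPM in capsule and 20.2 to 27.0 CPM in L.O.

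Partners across a shared promoter did not always change together. Both partners were lower in capsule than in L.O for H2BC11 and H2AC11, at -1.06 ± 0.16 and -1.02 ± 0.21 on the log2 scale, and for H2BC4 and H2AC6, at -1.05 ± 0.22 and -1.40 ± 0.18. H2AC13 was lower by its call, whereas H2BC13 was at 1.67, 1.75 and 1.84 CPM in capsule and 1.79, 1.56 and 1.29 CPM in L.O, a difference of 0.33 ± 0.31 (adjusted p = 0.414). H2AC15 was lower and H2BC15, at -0.45 ± 0.19, was not called (adjusted p = 0.0659). H2AC17 and H2BC17 were not called, at -0.58 ± 0.30 and -0.34 ± 0.26. Against Sph.WT the partners H2BC4 and H2AC6 parted. H2BC4 was at 2.50, 1.82 and 1.91 CPM in capsule, 3.84, 4.94 and 5.54 CPM in L.O and 1.26, 1.35 and 1.08 CPM in Sph.WT, so it was higher in L.O than in Sph.WT by 1.46 ± 0.22, while H2AC6 was at -0.55 ± 0.15 in that comparison. Differences between partners were not tested.

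Against the mean of both spheroid sets, 29 of the 42 tested genes were higher in capsule and 3 were lower, where 38.9% of all genes were higher and 35.6% lower. With a change of at least 2-fold, 22 were higher, against 15.9% of all genes, and 2 were lower, against 14.9%. The median log2 difference was 1.02 over the histone genes and 0.04 over all genes. This contrast averaged sets on either side of capsule, and the counts above for each set alone describe the data more directly. The 5 largest rises were those of H2BC26, at 0 in Sph.WT, H2AC12 (3.43 ± 0.47 on the log2 scale), H4C4 (3.15 ± 0.56), H4C11 (2.95 ± 0.28) and H2AC25. H2AC25, at 2.93 ± 0.18 in this contrast, was 6.65 against Sph.WT and -0.78 against L.O. When all 6 spheroid libraries were taken as 1 group with no term for the set, 1 gene was called higher and 2 lower. The 3 genes lower in capsule were again H2AC6 (-1.67 ± 0.16), H4C8 (-1.40 ± 0.25) and H2BC5 (-0.91 ± 0.13), each also lower against either set alone. The genes higher in capsule against either set alone were H1-4, H2AC12, H2AC20, H4C11, H4C3 and H4C4.

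The histone variants listed as replication-independent gave a comparison within the histones. Most, but not all, of them are made through the cell cycle from polyadenylated mRNAs. The 13 measured of 21 listed summed to 3269 to 3555 CPM in capsule, 3079 to 3573 CPM in L.O and 1431 to 1638 CPM in Sph.WT. For each 100 counts of variants there were 10.8 to 11.1 counts of the replication-dependent genes in capsule, 20.5 to 23.1 in L.O and 9.35 to 12.6 in Sph.WT. In this ratio L.O stood apart and capsule and Sph.WT overlapped. Of 12 variants tested, 9 were higher and 3 lower in L.O than in Sph.WT, against 42.4% and 43.1% of all genes tested. The median over the variants was 0.91 on the log2 scale. The largest was macroH2A2 (MACROH2A2), at 115 ± 2.57 CPM in capsule, 86.3 ± 4.79 CPM in L.O and 1.45 ± 0.269 CPM in Sph.WT. Between capsule and L.O, 5 variants were higher in capsule and 2 lower, against 22.5% and 23% of all genes tested. H2AZ1, which encodes H2A.Z.1, was at 1029.5 ± 67.4 CPM in capsule and 683 ± 31.0 CPM in L.O, opposite in direction to most replication-dependent genes.

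Genes for making, processing or handling histones and their mRNAs showed smaller differences than the histone genes. SLBP was at 110 ± 14.6 CPM in capsule, 101 ± 10.3 CPM in L.O and 96.0 ± 1.82 CPM in Sph.WT. Of the 33 genes listed for histone mRNA transcription, processing and decay, 14 were higher and 15 lower in L.O than in Sph.WT. Of all genes tested, 42.4% were higher and 43.1% lower in that comparison. The median log2 difference over the 33 was -0.03. For L.O minus Sph.WT, the log2 difference was -1.60 ± 0.10 for ERI1, the exonuclease that trims the histone mRNA end, and -1.23 ± 0.10 for NPAT, the coactivator of histone gene transcription. LSM11, a subunit of the U7 ribonucleoprotein, was at 34.8 ± 1.22 CPM in capsule, 26.9 ± 1.29 CPM in L.O and 10.9 ± 1.22 CPM in Sph.WT. Between capsule and L.O, 21 of the 33 were higher in capsule and 12 were not called, where 22.5% of all genes tested were higher. Of 25 histone chaperones, 13 were higher and 8 lower in L.O than in Sph.WT, led by CHAF1A, the large subunit of the chromatin assembly factor, at 1.67 ± 0.07.

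S phase genes were compared because the histone genes are transcribed with them. The 28 summed to 5662 to 5839 CPM in capsule, 5057 to 5184 CPM in L.O and 2102 to 2192 CPM in Sph.WT. In L.O relative to Sph.WT, 20 were higher and 4 lower, against 42.4% and 43.1% of all genes tested. The median log2 difference was 0.89, against 3.16 for the tested histone genes. In capsule relative to Sph.WT, 26 S phase genes were higher and 1 lower, against 43% and 42% of all genes. The replication licensing factor CDT1 led these at 2.96 ± 0.09. Between capsule and L.O, 21 were higher in capsule and 1 lower, against 22.5% and 23% of all genes. The S phase genes had a median of 0.33 there, whereas the histone genes had a median of -0.79. The order of the 3 sets for S phase genes was thus capsule, L.O, Sph.WT, and for the summed histone genes L.O, capsule, Sph.WT.

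Other RNAs without a poly(A) tail were set beside the histone mRNAs. The 10 measured of 13 listed, among them the signal recognition particle RNAs RN7SL1 and RN7SL2, summed to 1952, 2506 and 2372 CPM in capsule, 461, 851 and 1324 CPM in L.O and 160, 222 and 270.5 CPM in Sph.WT. The sets did not overlap, and their order was capsule, L.O, Sph.WT. RMRP, the RNA of RNase MRP, was at 38.3 ± 8.87 CPM in capsule, 5.86 ± 5.28 CPM in L.O and 0.244 ± 0.284 CPM in Sph.WT. RN7SK, an inhibitor of transcription elongation, was at 56.0 ± 3.92 CPM in capsule, 13.05 ± 10.6 CPM in L.O and 0.753 ± 0.150 CPM in Sph.WT. All 9 that were tested were higher in L.O and in capsule than in Sph.WT, as were most histone genes. Of all genes tested, 42.4% were higher in L.O and 43% in capsule. Between capsule and L.O, 7 of the 9 were higher in capsule and 2 were not called, while 22 histone genes were lower in capsule. L.O replicate 3 was the highest L.O library for both, with 2.02 times the mean of the other 2 for these RNAs and 1.30 times for the histone genes. The part that carry-over of RNA without a poly(A) tail had in the histone differences was not tested.

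**Figure D5:**
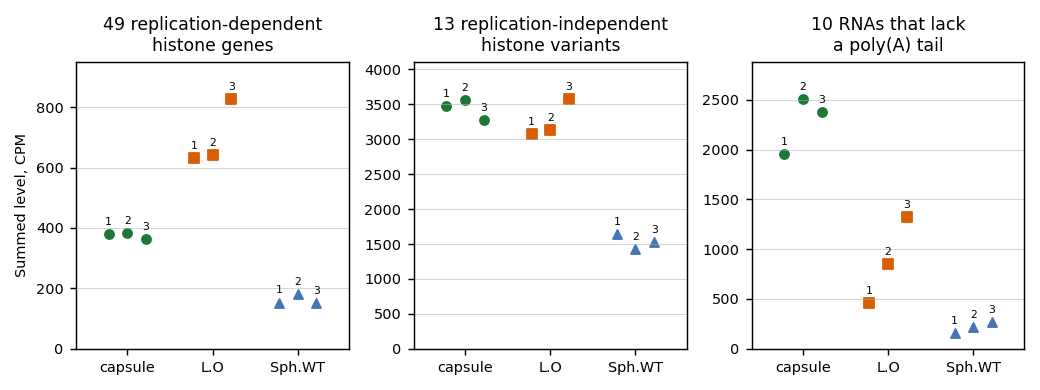
Summed CPM in each library of the 49 replication-dependent histone genes (left), 13 replication-independent histone variants (middle) and 10 RNAs that lack a poly(A) tail (right). Each point is 1 library, numbered by replicate, and all axes start at 0. L.O is highest in the left panel at 633 to 826 CPM, and capsule is highest in the right panel at 1952 to 2506 CPM.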

How the data were processed

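RNA was sequenced in 9 libraries. The authors deposited raw counts of reads per gene. The submitters' processing notes name hg38, featureCounts and limma. No aligner, annotation or strand handling was stated in the sources used here. Levels are CPM of the library total. Tests used edgeR 4.0.16 in R 4.3.3 on the counts: TMM scaling, filterByExpr, a quasi-likelihood fit with 1 mean for each of the 3 sets, and Benjamini-Hochberg adjustment over 16985 genes at 0.05. The common coefficient of variation was 7.73%. No 2 libraries agreed within sampling noise. On simulated counts for L.O against Sph.WT, 67.4% of 193 genes changed 1.5-fold and 87.1% of 194 changed 2-fold were recovered. Every other simulated gene had 1 mean level in all libraries, and 9 and 11 of those were called. In the data most genes tested were called between these sets, so the rates do not describe that contrast. DESeq2 1.42.0 and limma 3.58.1 were alternatives. Named genes were the 3 most abundant of each class and the 5 largest called rises and falls of each comparison, plus genes noted as exceptions after their values were seen. The members and lists were chosen with earlier results of these data known. Exon lengths and transcripts came from GENCODE release 29, promoters and coordinates from RefSeq. Other steps used Python 3.11.15, pandas 2.3.3 and scipy 1.17.1.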

Additional observations from a re-analysis of the deposited data

How the results depend on the processing

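Counts of histone genes called kept to within 1.5 times under most settings. The contrast of capsule with the mean of both spheroid sets moved most. It called 6600 genes higher and 6043 lower, against 390 and 249 with no set term, and 3829 and 3903 against L.O alone. Histone genes were 29 higher and 3 lower, against 1 higher with no set term, and 6 higher and 22 lower against L.O alone; leaving out a library gave 3 to 5 lower, the 5 without Sph.WT replicate 3. With no set term the log2 difference turned negative for H1-3 (-0.091), H2AC18 (-0.088), H2AC19 (-0.14), H2BC21 (-0.31), H3C14 (-0.12), H4C14 (-0.29) and H4C15 (-0.11). Against L.O alone it was -1.04 for H1-3, -0.997 for H2AC18, -1.06 for H2AC19, -0.78 for H2AC25, -1.08 for H2BC21, -0.81 for H3C10, -1.10 for H3C14, -0.96 for H3C15, -1.18 for H4C14, -0.99 for H4C15 and -0.41 for H2BC26. H1-2 (-0.08) became 0.00035 with library totals and 0.58 against Sph.WT alone, with a range of -0.14 to 0.020 when a library was left out, and H2BC12 (-0.17) became 0.13 against Sph.WT alone. The settings against 1 set alone change the spheroid libraries entered, and for the others the cause was not tested. Between capsule and L.O, library totals called 2216 genes higher and 5760 lower, DESeq2 called 3 histone genes higher, and leaving out a library gave 3 to 6, the 3 without L.O replicate 2. Between L.O and Sph.WT, histone genes called lower were 0 with edgeR on library totals (adjusted p of H2AC6 and H4C8 0.618 and 0.555), 1 with DESeq2 and 1 to 3 when a library was left out, and H2BC5 (0.14) was 0.61 with library totals and ranged from -0.062 (without L.O replicate 3) to 0.27 when a library was left out. Library totals moved the median log2 difference of all genes to 0.45 there, with 9349 genes higher and 5287 lower, and to 0.35 between capsule and Sph.WT, with 8742 and 5746.

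A replicate block for the number in the column names left the histone counts at 6 higher and 22 lower between capsule and L.O, 36 and 3 between capsule and Sph.WT, and 37 and 2 between L.O and Sph.WT. Same-numbered libraries deviated together with correlations of -0.12 to 0.02, so the numbers were not taken to pair them. Comparing capsule with each set separately was added after the data had been seen. Depth limits the lowest genes: 11 histone genes had 3 counts or fewer over Sph.WT, where 3 counts in a library equal 0.0902 to 0.181 CPM.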
